A study of Mus musculus with 4 samples.

Results

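The genes described here are those of the mitogen-activated protein (MAP) kinase cascade and of the dual-specificity phosphatases. They were taken by name: every probe set with exactly 1 annotated gene symbol that starts with Mapk, Map2k, Map3k, Map4k or Dusp. That gave 33 probe sets for 28 genes, of 7542 singly named probe sets for 6137 genes. Total RNA came from cells washed from the peritoneal cavity of Cebpe-deficient (-/-) and wild-type (+/+) mice, both of a mixed 129/SvEv x NIH Black Swiss background and 6 to 8 weeks old. Cebpe encodes C/EBPε, a transcription factor of granulocyte maturation. Per the labels 4 mice of each genotype had been injected 24 h earlier with 2 ml of 4% thioglycollate broth, a sterile irritant, and stained cells of either genotype were about 60% neutrophils, 30% monocytes and 7 to 10% lymphocytes. There were 4 arrays, 1 per genotype on each of 2 Affymetrix array types with different probe sets, called A and B here. No difference below therefore has a replicate check, and no test was possible.

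MAP kinase signalling passes in tiers. MAP4 kinases and small GTPases activate MAP3 kinases, which phosphorylate MAP2 kinases, which in turn phosphorylate the MAP kinases ERK, JNK, p38 and ERK5. Dual-specificity phosphatases remove the activating phosphates, and several of them are themselves induced by the pathway. In neutrophils and macrophages the cascade links Toll-like, cytokine and stress receptors to cytokine production, and p38 acts largely through MAPKAPK2, the kinase that stabilises cytokine mRNAs. ERK5, encoded by Mapk7, is activated by MAP2K5 and is known to drive MEF2 factors and, in endothelial cells, Klf2 and Klf4. Arrays of this kind measure mRNA, not kinase activity.

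The stated aim of the study was to find candidate targets of C/EBPε, so the promoter windows were read for a C/EBP pattern. The cAMP response element and an AP-1 pattern were searched as well. The windows below belong to Mapk7 and Mapkapk2, which each had a probe set higher by 2-fold or more, and to Dusp1, which had the lowest of the ratios. Each runs from 250 bases before to 50 bases after the transcript start in RefSeq, build GRCm38.p6, and is printed 5′ to 3′ on the gene's strand. Capitals mark the cAMP response element TGACGTCA or its core TGACG, and no C/EBP pattern. Also searched, with no match in these windows, were the C/EBP pattern TTGCNNAA and the AP-1 pattern TGANTCA. Both strands were searched, and the full element holds 2 overlapping cores.
Mapk7 (chr11:61494217-61494516, minus strand): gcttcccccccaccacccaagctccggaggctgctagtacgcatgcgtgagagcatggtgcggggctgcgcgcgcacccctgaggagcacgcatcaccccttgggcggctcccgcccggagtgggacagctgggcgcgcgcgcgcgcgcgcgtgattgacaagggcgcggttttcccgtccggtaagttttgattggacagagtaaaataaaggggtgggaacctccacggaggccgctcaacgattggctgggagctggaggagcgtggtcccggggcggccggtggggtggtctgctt
Mapkapk2 (chr1:131097794-131098093, minus strand): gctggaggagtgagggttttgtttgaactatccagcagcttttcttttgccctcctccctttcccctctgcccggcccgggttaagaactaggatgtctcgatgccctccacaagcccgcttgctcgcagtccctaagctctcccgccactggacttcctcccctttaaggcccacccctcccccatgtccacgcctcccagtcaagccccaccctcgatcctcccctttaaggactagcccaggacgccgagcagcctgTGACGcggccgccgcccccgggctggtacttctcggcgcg
Dusp1 (chr17:26508423-26508722, minus strand): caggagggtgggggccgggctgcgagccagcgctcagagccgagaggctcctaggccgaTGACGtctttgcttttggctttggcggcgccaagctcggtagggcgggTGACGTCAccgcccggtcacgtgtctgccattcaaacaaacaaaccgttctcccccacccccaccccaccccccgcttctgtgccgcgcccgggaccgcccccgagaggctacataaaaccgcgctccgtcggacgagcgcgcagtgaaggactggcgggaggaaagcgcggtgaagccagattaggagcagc

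A second Mapk7 window, for a start 5 bases away, also held none of these patterns. The Mapkapk2 window held 1 core, which begins at base 11 of the transcript. The Dusp1 window held the full element, with its first base at -143, and a further core at -191. Of the 28 genes, 23 had a window in the table, 31 windows in all. The C/EBP pattern was in 12.9% of these 31 windows (genes Map2k4, Map3k7 and Mapk14), against 10.8% of all 32851 windows. The core was in 41.9% of them, against 20.8% of all, the full element in 6.45% (Dusp1 and Mapk10), against 1.79%, and the AP-1 pattern in 3.23%, against 7.81%. The member windows had a median GC content of 60.7%, against 52.7% over all windows. These matches are letters in a window and were not tested as binding sites.

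The values are deposited array intensities in arbitrary units, and a signal floor was set at the median reading of each array type, 1036.5 on A and 690.17 on B. Where both readings exceeded the floor a log2 ratio was formed, Cebpe-deficient over wild-type, and where only 1 did, the ratio is a bound against the floor. Of the 33 member probe sets, 16 (48.5%) gave a ratio, against 45.2% of all 13069, a further 2 gave a bound, and 15 were at or below the floor in both genotypes. The pooled SD of the log2 ratio over repeat probe sets of a gene was 0.47 for dim probe sets (a reading below 3 times the floor) and 0.28 for brighter ones. It stands for disagreement between probe sets of a gene and holds no spread between mice. Probe sets on the same array share its RNA and hybridisation, so error common to an array is not fully held in it.

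Mapk7 had the highest ratio of the measured members. It was 3.71-fold higher in Cebpe-deficient cells, whereas the MAP kinases Mapk14 and Mapk10 and all 4 measured MAP3 kinases differed by less than 0.28 log2 units either way. Of the 16 ratios, 2 were higher by 2-fold or more, those of Mapk7 and of 1 of the 2 Mapkapk2 probe sets, and 0 were lower by that much. Over all 5903 probe sets with a ratio 6.84% were past 2-fold, 3.39% higher and 3.46% lower. The members' median log2 ratio was 0.06 (9 above 0 and 7 below), or 0.05 with the 2 bounded members at their bounds, against 0.02 over all probe sets. A distance of more than 2 SD from 0 was seen for 5 of the 16 (Mapk7, Mapkapk2 by 1 probe set, Map4k1, Dusp1 and Dusp6), against 15.6% of all probe sets.

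**Figure D1:**
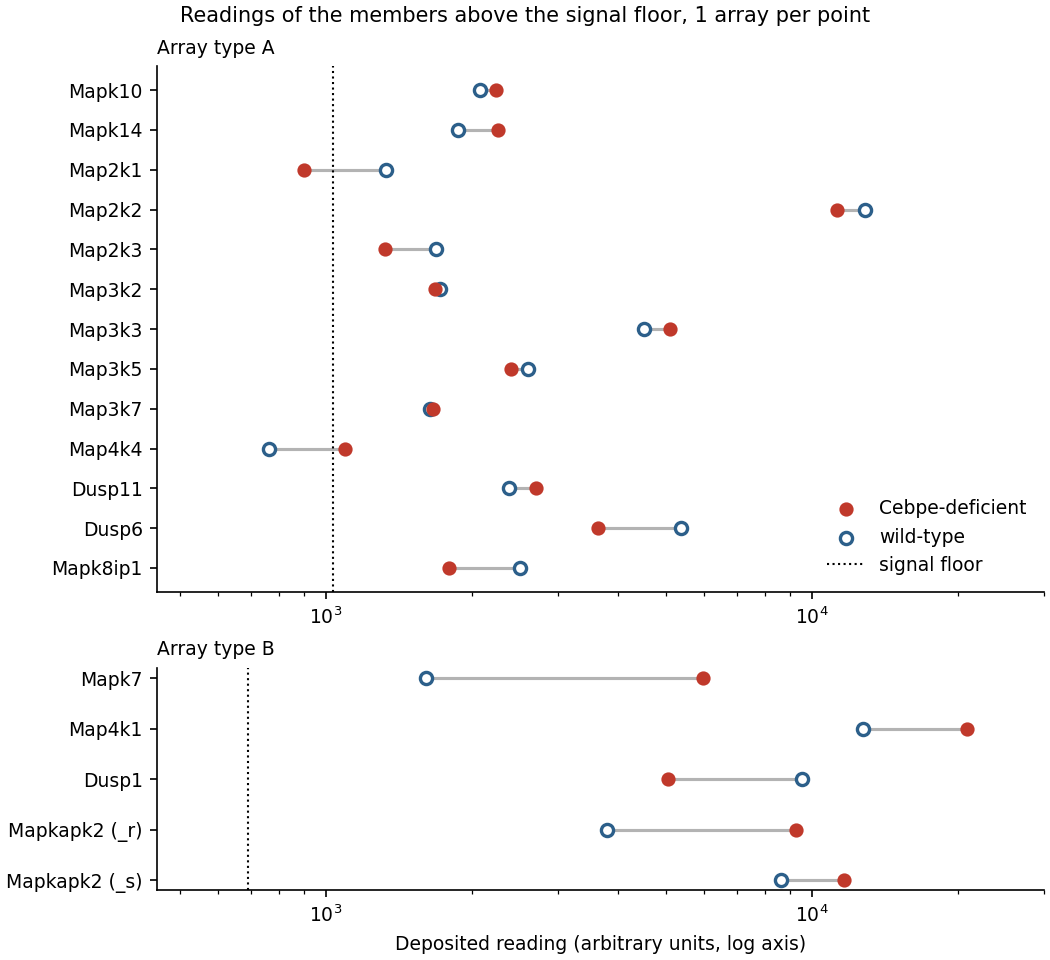
Deposited readings (x axis, arbitrary units, log axis) of the 18 member probe sets above the signal floor on at least 1 array, for Cebpe-deficient cells (filled red) and wild-type cells (open blue), 1 array per point, with the floor dotted. Mapk7 has the widest gap of the probe sets shown, 5983 in Cebpe-deficient and 1610 in wild-type cells.

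Among the MAP kinases, Mapk7 read 5983 in Cebpe-deficient cells and 1610 in wild-type cells, which are 8.66 and 2.34 times the floor of type B. Its log2 ratio of 1.89 was 4.00 SD of repeat probe sets from 0 and ranked 13th highest of the 2954 ratios on B. Mapk7 was singled out with this ratio already known, so the value describes it and tests nothing. It rests on 1 probe set.

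Mapk14, which encodes p38α, read 2255 in Cebpe-deficient and 1868 in wild-type cells, a log2 ratio of 0.27. Mapk10, which encodes JNK3, a kinase known mainly from brain, read 2234 in Cebpe-deficient and 2074 in wild-type cells, a log2 ratio of 0.11. Both differences are smaller than 1 SD of repeat probe sets. The log2 ratio of Mapk7 lay 1.70 above the median of these 2 genes, 1.62 above Mapk14 and 1.78 above Mapk10. The gaps to single genes are 2.42 and 2.67 times the SD of such a difference (0.67). Mapk7 was read on type B and the other MAP kinases on type A, so gene and array type cannot be told apart in this contrast. Other MAP kinase genes, such as those of ERK1, ERK2, JNK1 and JNK2, were not analysed here.

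**Figure D2:**
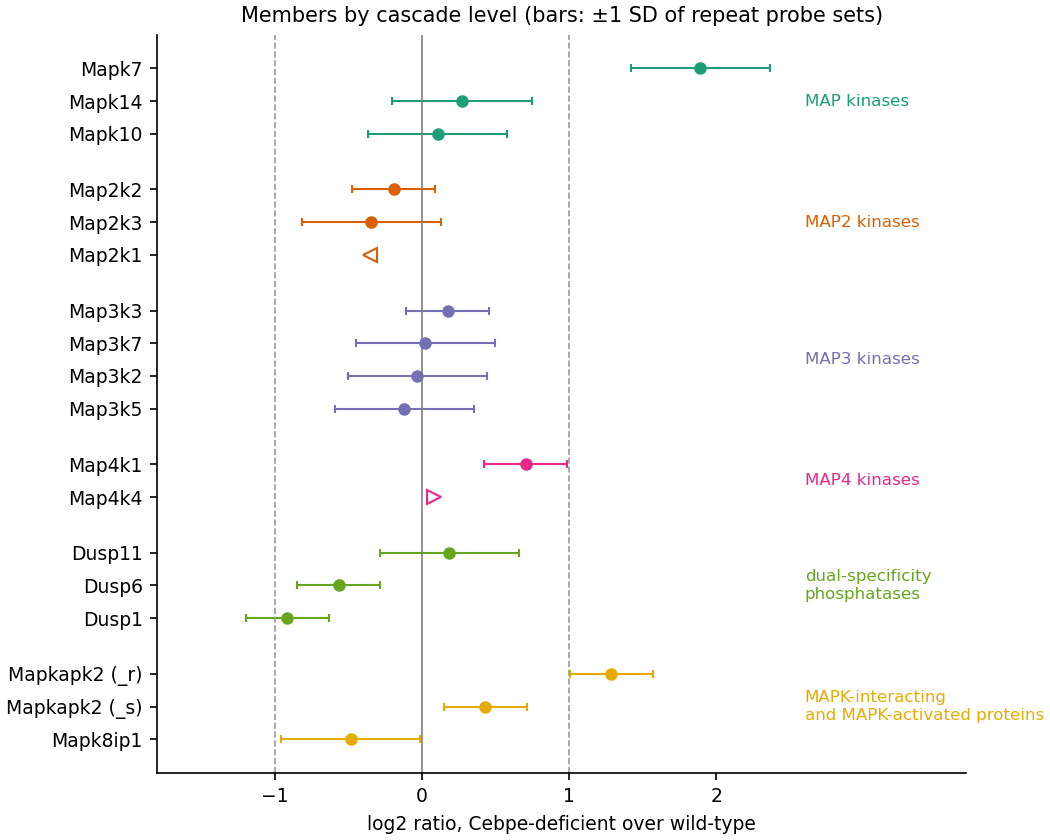
The log2 ratio, Cebpe-deficient over wild-type (x axis), of each measured member (rows) grouped by cascade level. Bars are ±1 SD of repeat probe sets, open triangles are bounds and dashed lines mark 2-fold. Mapk7 lies at 1.89, while the other MAP kinases and the 4 MAP3 kinases lie between -0.12 and 0.27.

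Of the 5 MAP2 kinases on the arrays, the tier directly above, 2 gave a ratio, both below 0. Map2k2, which encodes the ERK activator MEK2, read 11254 in Cebpe-deficient and 12865 in wild-type cells, a log2 ratio of -0.19 that became 0.01 with scaling to the bacterial hybridisation controls. Map2k3, an activator of p38, read 1324 in Cebpe-deficient and 1682 in wild-type cells, a log2 ratio of -0.35. Map2k1, encoding MEK1, exceeded the floor in wild-type cells alone, at 900 in Cebpe-deficient and 1327 in wild-type cells, so it was at least 1.28-fold lower. The ratios of Map2k2 and Map2k3 lie within 1 SD of repeat probe sets. With the floor lowered to the 30th percentile Map2k1 gave a ratio of -0.56 on the log2 scale. Map2k4, an activator of JNK, read 962 and Map2k6, an activator of p38, read -795 in Cebpe-deficient cells, against 643 and -728 in wild-type cells, below the floor in both. The lower floor gave Map2k4 a log2 ratio of 0.58. Map2k5, the activator of ERK5, was not analysed here.

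At the MAP3 kinase tier 4 of the 9 genes gave a ratio, with a median of -0.01 on the log2 scale, from -0.12 to 0.18. Map3k3 (MEKK3), which acts above ERK5 and p38, was the highest, at 5101 in Cebpe-deficient and 4516 in wild-type cells. Map3k5, encoding the stress kinase ASK1, was the lowest, at 2402 in Cebpe-deficient and 2611 in wild-type cells. Between them lay Map3k7 (TAK1), which relays Toll-like and interleukin 1 receptor signals, at 1662 in Cebpe-deficient and 1636 in wild-type cells. Map3k2 (MEKK2), the other MAP3 kinase known above ERK5, read 1677 in Cebpe-deficient and 1715 in wild-type cells by 1 probe set. Its second probe set did not reach the floor, at 85 in Cebpe-deficient and 696 in wild-type cells. Map3k1, Map3k4, Map3k8, Map3k11 and Map3k12 were below the floor in both genotypes, and the 6 such probe sets of this tier read -323 to 709 in Cebpe-deficient and -1031 to 756 in wild-type cells. Among them is Map3k8 (TPL2), which macrophages need for ERK activation by Toll-like receptors, at 547 in Cebpe-deficient and 370 in wild-type cells. The lower floor gave Map3k8 a log2 ratio of 0.56, and log2 bounds of -1.44 for the second Map3k2 probe set and -1.18 for Map3k12. Of the measured genes Map3k2 and Map3k5 changed sign under bacterial-control scaling, to 0.17 and 0.08. Map3k2 was also above 0 with equal medians, at 0.03.

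Of the MAP4 kinases, Map4k1 encodes HPK1, a kinase of blood cells that feeds the JNK pathway. It read 20838 in Cebpe-deficient and 12755 in wild-type cells, 1.63-fold higher. The log2 ratio of 0.71 was 2.50 SD of repeat probe sets from 0. Bacterial-control scaling put it at 1.06, past 2-fold. Map4k4 (HGK) was above the floor in Cebpe-deficient cells only, at 1094 in Cebpe-deficient and 764 in wild-type cells, so it was at least 1.06-fold higher.

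Of the dual-specificity phosphatases, the early response genes Dusp1 and Dusp6 were lower in Cebpe-deficient cells. Dusp1 (MKP-1), which inactivates p38 and JNK in stimulated macrophages, read 5052 in Cebpe-deficient and 9521 in wild-type cells, 1.89-fold lower. Its log2 ratio of -0.92 was the lowest of the 16, 3.25 SD of repeat probe sets below 0. Dusp6 (MKP-3), a phosphatase of ERK, read 3623 in Cebpe-deficient and 5369 in wild-type cells, 1.48-fold lower, with a log2 ratio of -0.57. Dusp11, which acts on RNA 5′ ends and is not a MAP kinase phosphatase, read 2706 in Cebpe-deficient and 2382 in wild-type cells (0.18), and its second probe set did not reach the floor, at -475 in Cebpe-deficient and 253 in wild-type cells. The negative sign of Dusp1 and of Dusp6 held under each of the 7 other scalings and floors, over which the log2 ratio ran from -1.09 to -0.57 for Dusp1 and from -0.60 to -0.36 for Dusp6. Equal medians put Dusp1 past 2-fold.

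Dusp2, Dusp9 and Dusp16 were below the floor in both genotypes. Dusp2 (PAC-1), a phosphatase of activated blood cells, read -1215 in Cebpe-deficient and 316 in wild-type cells. Dusp16 (MKP-7), which acts on JNK, read 205 in Cebpe-deficient and 961 in wild-type cells. Dusp9 read -26 in Cebpe-deficient and -441 in wild-type cells. With the lower floor Dusp16 had a log2 bound of -1.91 and Dusp2 one of -0.30, so Dusp1 was not the lowest member there.

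Among the proteins that bind MAP kinases or act below them, Mapkapk2 was higher in Cebpe-deficient cells by both of its probe sets. One, whose suffix (_r) marks relaxed probe selection, read 9259 in Cebpe-deficient and 3793 in wild-type cells, 2.44-fold higher and 4.55 SD of repeat probe sets from 0. The other read 11657 in Cebpe-deficient and 8639 in wild-type cells, 1.35-fold higher. Their log2 ratios, 1.28 and 0.43, differ by 0.86, which is more than 2 times the SD of such a difference (0.40), so the probe sets disagree in size and not in direction. Mapk8ip1 (JIP1), a scaffold of the JNK pathway, read 1788 in Cebpe-deficient and 2503 in wild-type cells by 1 probe set (-0.49), while its other did not reach the floor, at -633 in Cebpe-deficient and -684 in wild-type cells. Both probe sets of the scaffold Mapk8ip3 (JIP3) were below the floor, at 290 and 945 in Cebpe-deficient and 712 and 613 in wild-type cells. The lower floor gave them log2 ratios of -1.30 and 0.62, of opposite sign.

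**Figure D3:**
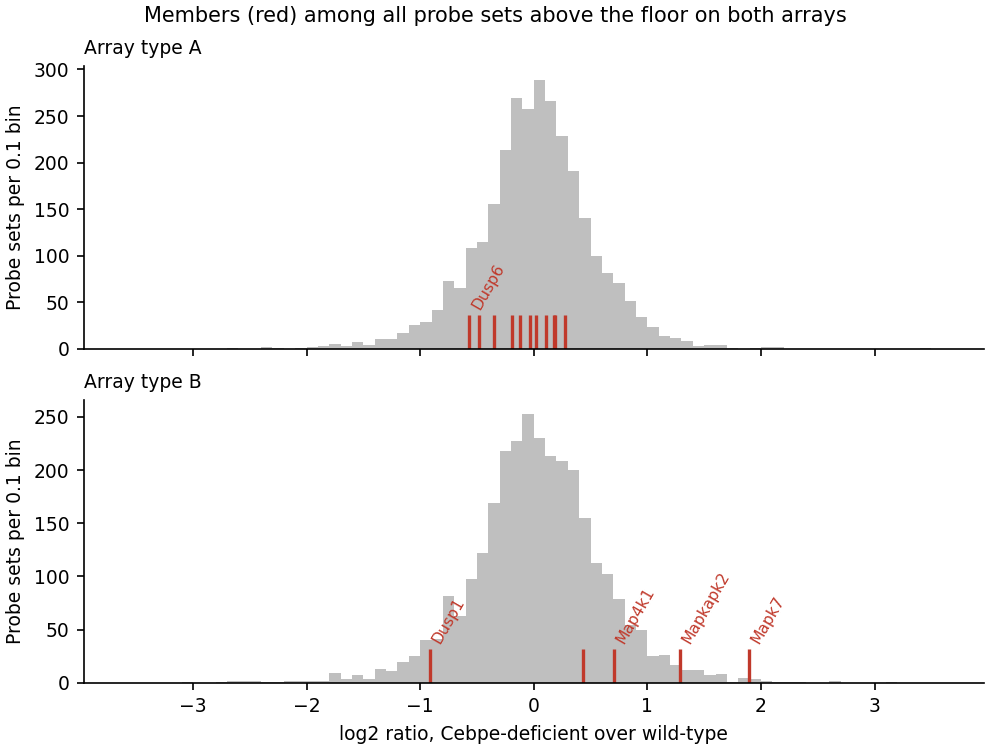
Number of probe sets per 0.1 bin (y axis) by log2 ratio, Cebpe-deficient over wild-type (x axis), on array types A and B, with each measured member as a red tick. The 11 members on A lie within 2-fold, and Mapk7 and 1 Mapkapk2 probe set on B lie past it.

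The members' differences were unevenly split between the array types. The 11 ratios on A had a median of -0.03 and none reached 2-fold, where 5.7% of all probe sets did. The 5 ratios on B had a median of 0.71, with Mapk7, Map4k1 and both Mapkapk2 probe sets above 0 and Dusp1 below, where 7.99% of all probe sets were past 2-fold. The medians over all probe sets were 0.02 on both A and B. Scaling to the bacterial controls moved those medians to 0.21 on A and 0.36 on B, and equal medians moved that on B to -0.14. Mapk7 kept its sign and stayed past 2-fold under each scaling, from 1.72 with equal medians to 2.24 with the bacterial controls. With the floor at the 70th percentile (2044.02 on B) the wild-type reading fell below it, and the value became a log2 bound of 1.55.

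**Figure D4:**
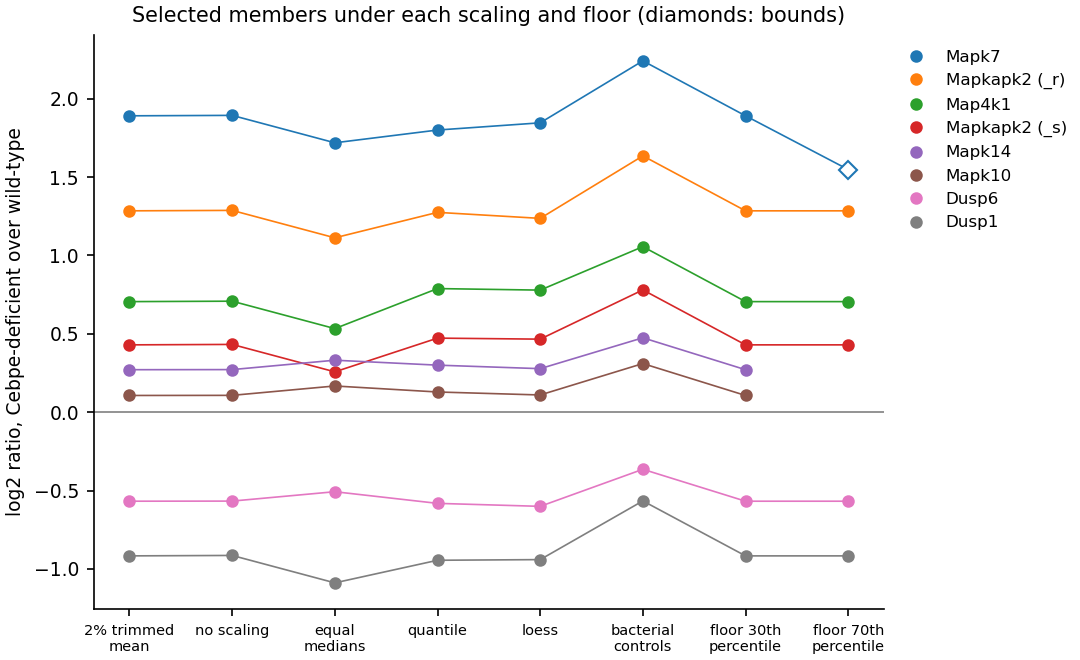
Log2 ratio, Cebpe-deficient over wild-type (y axis), of 8 member probe sets under each scaling and floor (x axis), with bounds as open diamonds and a gap where both readings were below the floor. Mapk7 is the highest and Dusp1 the lowest of these 8 under each setting shown, with Mapk7 between 1.55 (a bound) and 2.24.

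The other genes of the pathway were read from a list by role, which held 85 genes, 60 of them on the arrays and 41 with a ratio. Of these 41, 1 was higher and 1 lower by 2-fold or more, where 6.84% of all probe sets with a ratio were past 2-fold. Their median log2 ratio was 0.04 (22 above 0 and 19 below), against 0.02 over all probe sets. Bounds of 2-fold or more were found for 4 of 8 further genes and for 0 of the 2 bounded members, against 21.5% of all bounds. A further gene entered by its brightest probe set relative to the floor, and so by its largest bound. The share of all bounds counts every bounded probe set, so it is no like measure for these genes. The upstream group, with Ras proteins, adaptors and TRAFs, had 7 of 10 ratios above 0, led by Rras at 0.84 and Rap1a at 0.70, small GTPases of the Ras family. Scaffolds and inhibitors split 3 to 3, and the phosphatase list had 1 of 4 above 0, Ppm1a at 0.64. Bacterial-control scaling, which put 73.1% of all ratios above 0 against 51.8% with the common trimmed mean, put all 10 of the upstream group and all 4 of those phosphatases above 0. The kinases that ERK and related pathways activate were represented by Rps6ka3, which encodes RSK2, at -0.38 and by Sgk1, a kinase known as a substrate of ERK5, at 0.08.

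The nuclear targets went both ways, with 9 of 17 ratios above 0. Elk1, a ternary complex factor that ERK phosphorylates, read 6174 in Cebpe-deficient and 3292 in wild-type cells (0.90). Fos, by the 1 of its 2 probe sets that gave a ratio, and Junb, both subunits of AP-1, stood at -0.80 and -0.70. The immediate early gene Egr2 read 499 in Cebpe-deficient and 3950 in wild-type cells, at least 5.73-fold lower, and the AP-1 gene Fosl2 read 399 in Cebpe-deficient and 4296 in wild-type cells, at least 6.23-fold lower. Creb1, by contrast, read 1906 in Cebpe-deficient and 448 in wild-type cells by 1 of its 2 probe sets, at least 2.76-fold higher. The other Creb1 probe set gave no ratio either. When the floor was raised to the 70th percentile Creb1 gave no value, and the log2 bounds of Egr2 and Fosl2 were -0.95 and -1.07.

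Genes known to work with ERK5 had 4 of 5 ratios above 0, under each of the 8 scalings and floors except that 6 of 7 were above 0 with the floor at the 30th percentile. Over all probe sets with a ratio 51.8% were above 0, and 73.1% with bacterial-control scaling. Klf2, a transcription factor that ERK5 induces in endothelium, read 23071 in Cebpe-deficient and 11373 in wild-type cells, 2.03-fold higher, and fell just short of 2-fold with loess. Klf4 stood at 0.46 and the kinase co-chaperone Cdc37 at 0.68. Mef2d stood at 0.44 by 1 of its 3 probe sets, and the others gave no ratio. Mef2c read 2165 in Cebpe-deficient and 819 in wild-type cells by 1 of its 2 probe sets, at least 2.09-fold higher. That probe set gave no value when the floor was raised to the 70th percentile, and the other gave no ratio either. The chaperone gene Hsp90aa1 was the exception, 2.29-fold lower, with 6145 in Cebpe-deficient and 14038 in wild-type cells, and bacterial-control scaling put it at -0.84, short of 2-fold. The list and Mapk7 were chosen with earlier results of these data known, so these values stand side by side and support nothing about each other.

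**Figure D5:**
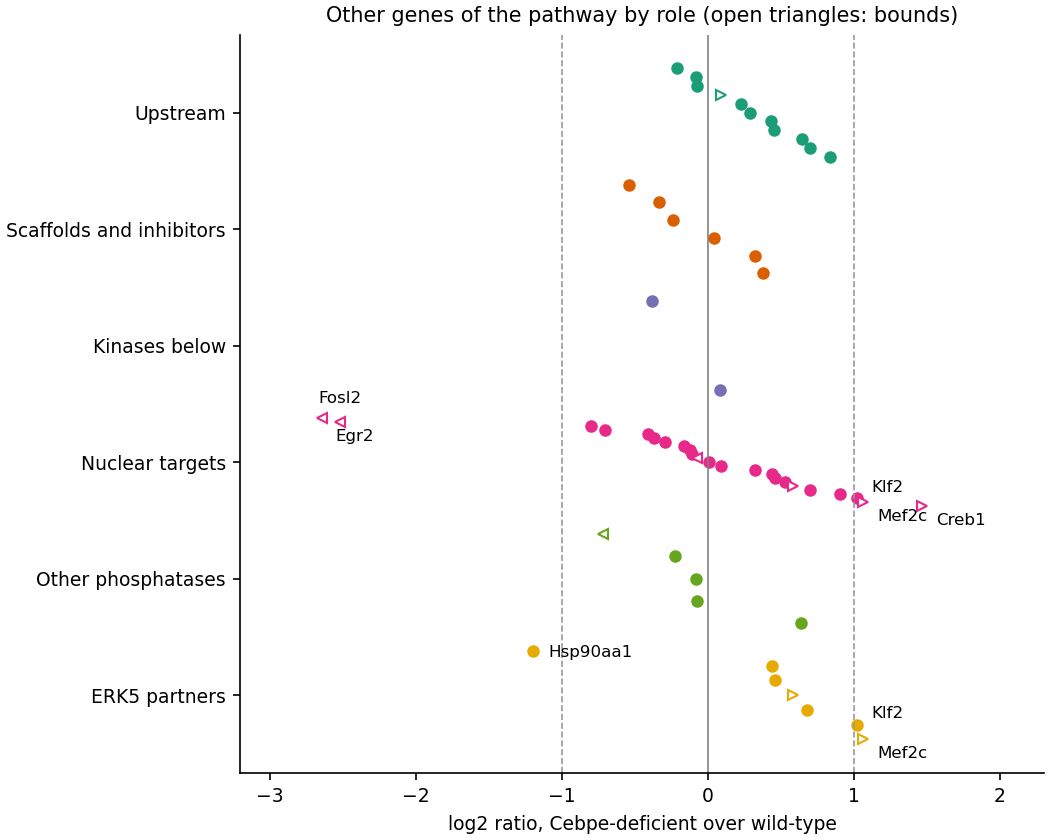
Log2 ratio, Cebpe-deficient over wild-type (x axis), of the other genes of the pathway by role (rows), with filled points for ratios, open triangles for bounds, dashed lines at 2-fold and labels for genes past it. Klf2 and Hsp90aa1 are the only ratios past 2-fold, and Mef2c appears both as a nuclear target and as an ERK5 partner.

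The labelled cells were checked against marker genes. All 10 neutrophil markers and all 9 monocyte and macrophage markers on the arrays were above the floor in at least 1 genotype. For comparison, 51.8% of all 5903 ratios lay above 0. Some 3.39% of them reached 2-fold upwards and 3.46% downwards. Neutrophil markers were lower in 8 of 9 measured cases, with a median log2 ratio of -0.52. Their readings summed to 204209 in Cebpe-deficient and 261957 in wild-type cells. Ngp, Ly6g and Csf3r were lower by 2-fold or more. Cxcr2, above the floor in wild-type cells alone, was at least 2.05-fold lower. By contrast S100a8, Itgb2 and S100a9 stood at -0.08, -0.15 and -0.24, and Elane at 0.11. Monocyte and macrophage markers split 4 to 4, with sums of 270218 in Cebpe-deficient and 286431 in wild-type cells. Among them Apoe was 4.64-fold, Ccr2 1.95-fold and Csf1r 1.79-fold higher, and Mrc1 was 4.92-fold and Cd14 2.04-fold lower. Mesothelial and fibroblast markers were lower in 4 of 4, with sums of 6218 in Cebpe-deficient and 14096 in wild-type cells, while Msln and Krt19 were below the floor. Of 6 T and NK cell markers 4 were below the floor in both genotypes, among them Cd3g, Cd4 and Cd8a. B cell markers were lower in 3 of 4 measured cases, with sums of 43388 in Cebpe-deficient and 53270 in wild-type cells. Erythroid markers summed to 66971 in Cebpe-deficient and 103112 in wild-type cells. Hbb-b2 was 3.08-fold and Alas2 at least 6.92-fold lower. Hba-a1 read 50393 in Cebpe-deficient and 49059 in wild-type cells, a log2 ratio of 0.04, and its other probe set gave -0.46. Of the eosinophil markers Ccr3 was 3.79-fold lower, while Epx and Prg2 were below the floor, and the mast cell markers split 1 to 1. The part of these shifts in the differences of Mapk7, Mapkapk2, Dusp1 and the others was not tested. In bulk RNA, fewer cells of a type and less RNA per cell cannot be told apart. Cebpe itself was not analysed here.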

How the data were processed

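RNA of mouse peritoneal exudate cells was read on 4 Affymetrix arrays of 1 colour. Genotype was taken from the sample titles. The deposited values are intensities on a linear scale, whole numbers of which 20.7% to 29.3% are below 0. How their background was corrected and how they were scaled is not given in the sources used here, nor is any pooling of mice. Gene symbols came from the platform annotation, and all 33 member probe sets matched a RefSeq gene ID of GRCm38.p6 with the same symbol. One further probe set, shared by Adam1a and Mapkapk5, was left out because it carries several symbols.

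The arrays of each type were brought to the same mean over non-control probe sets, leaving out 2% at either end. The floor, ratios and bounds followed as described above. For a pathway gene on more than 1 probe set, the measured one brightest relative to the floor was used. With 1 array per genotype and type no p-value is given, and the number of arrays limits the precision. Every member is accounted for. Both readings are given for MAP kinases, members past 2-fold, repeated genes and each level's highest and lowest member. The members, lists and alternatives were chosen with earlier results of these data known. The ratio procedure was tested on simulated data, with known changes placed only in probe sets whose wild-type reading was well above the floor. The wild-type reading of Mapk7, 2.34 times the floor, was lower than these, so the simulation does not cover it. Python 3.11.15, numpy 2.4.6, pandas 2.3.3, statsmodels 0.14.6 and matplotlib 3.10.9 were used.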

Additional observations from a re-analysis of the deposited data

How the results depend on the processing

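The alternatives were 5 other scalings (none, equal medians, quantile, loess, bacterial controls), floors at the 30th and 70th percentile, no suffixed probe sets, gene means, 1 array type at a time, and 3-fold in place of 2-fold. No paired analysis was possible because each genotype has 1 array per type. The count of members past 2-fold, 2, was 1 by gene means, without suffixed probe sets, at 3-fold and with the higher floor, and 0 on type A alone. It was 3 with equal medians, bacterial-control scaling or the lower floor. The lower floor gave 23 member ratios and the higher floor 7. Over all probe sets the share past 2-fold was 7.33% with equal medians, 10.2% with bacterial-control scaling and 15.3% with the lower floor. The share was 4.12% with the higher floor, 5.7% on type A alone, 7.02% without suffixed probe sets and 6.51% by gene means. Past 3-fold it was 1.47%. On type B alone the medians were 0.71 for all members, 1.89 for the MAP kinases (Mapk7 alone) and 0.86 for the MAPK-interacting and MAPK-activated proteins (Mapkapk2 alone). On type A alone they were -0.19 for the phosphatases, without Dusp1, and -0.49 for the interacting proteins, whose median was 0.43 on both types and 0.86 with the higher floor. The MAP3 kinase median, -0.01, was above 0 with equal medians (0.06), quantile (0.02), bacterial-control scaling (0.20) and the higher floor (0.18). The member median on A alone was -0.03. The count of other pathway genes past 2-fold, 2 of 41, was 1 with loess and 7 of 49 with the lower floor. With bacterial-control scaling it was 4 (4 higher, 0 lower). The shares over all probe sets are those given above, and 6.78% with loess. These alternatives for the pathway genes were added after seeing the data. Mapk7 was at 1.55 or above throughout, as a bound with the higher floor. Array number and signal near the floor limit all values.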
